A study of Mus musculus with 15 samples.

Results

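The Slc25 genes encode the mitochondrial carriers, and they were described here in intestinal cells of mice on a control or a high fat diet. The members were the rows of the count table whose symbol starts with Slc25a, without Slc25a20, the acylcarnitine carrier. That gave 42 of 17185 genes. All samples came from 6-month-old mice of the strain Lgr5-eGFP-IRES-CreERT2, in which the stem cell gene Lgr5 drives a green fluorescent reporter and an inducible recombinase. The controls carried this allele too. The control group held 2 mice whose diet supplied 10% of its kcal as fat, and the high fat group held 3 mice at 60%. Each mouse gave a proximal small intestine, a distal small intestine and a colon library, which makes 15 libraries. Single cells were profiled with Seq-Well, which isolates cells in small wells and counts unique molecular identifiers (UMIs). Unless stated otherwise, values per mouse are given in the order control diet mice 1 and 2, then high fat diet mice 1, 2 and 3.

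Mitochondrial carriers are small proteins, mostly of the inner mitochondrial membrane, that exchange nucleotides, phosphate, amino acids, carboxylates and cofactors between the cytosol and the matrix. They are made in the cytosol and inserted by the import machinery of the organelle. In the gut epithelium they link ATP supply, amino acid conversion and redox balance to the state of the cell, and the small intestine is known for its conversion of glutamine-derived ornithine to citrulline. Slc25a17 sits in peroxisomes and Slc25a46 in the outer mitochondrial membrane.

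Upstream sequences are shown for 5 carriers whose levels differed between organs or cell groups or stood apart by diet, and whose window overlaps no annotated exon. RefSeq promoter entries (GRCm38.p6, which has the coordinates of mm10) matched 32 of the 42 members, with 42 windows. Each sequence below is the 200 bases before a RefSeq transcription start, 5′ to 3′ on the gene's strand, and capitals mark matches to a searched motif. The windows are Slc25a12 on the minus strand (chr2:71367756-71367955), Slc25a23 on the minus strand (chr17:57059864-57060063), Slc25a24 on the plus strand (chr3:109122949-109123148), Slc25a34 on the minus strand (chr4:141623835-141624034) and Slc25a48 on the plus strand (chr13:56438155-56438354).
Slc25a12: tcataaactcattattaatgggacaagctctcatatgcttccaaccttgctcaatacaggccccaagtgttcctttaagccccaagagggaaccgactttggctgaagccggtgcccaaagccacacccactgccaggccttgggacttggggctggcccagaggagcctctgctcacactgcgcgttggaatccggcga
Slc25a23: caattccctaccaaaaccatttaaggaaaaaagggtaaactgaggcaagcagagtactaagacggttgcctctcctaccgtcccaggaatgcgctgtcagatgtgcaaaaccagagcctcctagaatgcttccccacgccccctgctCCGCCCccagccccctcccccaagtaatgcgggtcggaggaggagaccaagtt
Slc25a24: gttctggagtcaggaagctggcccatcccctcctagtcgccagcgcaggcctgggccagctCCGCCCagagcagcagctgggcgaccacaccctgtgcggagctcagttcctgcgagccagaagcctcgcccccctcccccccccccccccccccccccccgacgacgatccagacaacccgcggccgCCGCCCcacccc
Slc25a34: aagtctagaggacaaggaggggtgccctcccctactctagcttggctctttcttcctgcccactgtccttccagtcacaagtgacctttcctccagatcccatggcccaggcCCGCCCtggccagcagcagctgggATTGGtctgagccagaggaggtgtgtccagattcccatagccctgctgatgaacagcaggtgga
Slc25a48: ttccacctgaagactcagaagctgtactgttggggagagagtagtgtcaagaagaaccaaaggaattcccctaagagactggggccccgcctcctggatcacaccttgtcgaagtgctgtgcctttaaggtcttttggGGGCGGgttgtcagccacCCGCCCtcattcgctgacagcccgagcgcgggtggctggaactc
The 8 motifs were searched on both strands, and matches of different motifs may overlap. The median share of G and C was 59.5% in the carrier windows and 53% in all windows, and its part in the motif counts was not tested. The letters GGGCGG (GC box) were found in 30 of the 42 carrier windows and in 31.0% of all 32851 windows of this length. The letters CCAAT were found in 18 carrier windows and in 29.3% of all windows, and CACGTG (E-box) in 6 and in 5.26%. Windows of Slc25a14 overlap each other, as do those of Slc25a23, so 1 site can count in more than 1 window, and the 6 E-box windows belong to 5 genes. The TATA box letters TATAAA were found in 1 carrier window, that of Slc25a21, and in 9.96% of all windows. A motif of the CDX type, spelled CAATAAA, was found in 1 carrier window, that of Slc25a28, and in 3.26% of all windows. CAAAGTCCA (the HNF4 type), the DR1 repeat bound by nuclear receptors and the NRF1 palindrome were found in 0 carrier windows and in 0.317%, 0.0335% and 3.49% of all windows. Slc25a24 held GC boxes at 139 and 12 bases before the start, and Slc25a48 at 62 and 44. Slc25a34 held a GC box at 88 and a CCAAT match at 64 bases before the start. Slc25a23 held a GC box at 53 bases before the start. The Slc25a12 window held none of the 8 motifs. The matches are descriptions of letters, and no binding was measured.

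The authors' cell table divides the 18919 cells into 4618 stem-called and 14301 other cells. Every stem-called cell, and no other, had a UMI of Lgr5 or the reporter, so the call depends on depth, and Lgr5 is at 0 in all other cells by construction. UMIs were summed per mouse, organ and call into 30 sums of 27 to 617 stem-called or 297 to 1438 other cells. They held 321496 to 28652200 UMIs, and the smallest, from the colon of high fat diet mouse 2, held 27 stem-called cells. Summed over a list of 8 stem cell markers that includes Lgr5, so that the call fixes part of the difference, stem-called cells reached 7550 to 11444 CPM (UMIs of a gene scaled to a common library total) in the small intestine and other cells 1329 to 3852. In the colon the ranges were 3138 to 4224 and 821 to 1717 CPM, with Olfm4 listed at 0 in both. B and plasma cell markers were at 32.9 to 1000.1 CPM in other colon cells. In such sums a shift in the mix of cells and a change within cells cannot be told apart. The replicates are these 5 mice. For organs and cell groups, p-values measure how differences within a mouse spread between mice. In the main fits of diet, organs of the same mouse counted as separate samples, with no term for the mouse. So did libraries of the same mouse in the test of whether the stem-called difference varied by organ. The p-values of these fits therefore do not measure the spread between mice alone.

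The carriers together took a slightly smaller share of the UMIs in distal than in proximal cells. Their summed level was 2623 ± 209 CPM (SD, n = 5 mice) in proximal, 2400 ± 232 in distal and 2574 ± 179 in colon stem-called cells. In other cells it was 2832 ± 349, 2487 ± 339 and 2565 ± 309 CPM. Distal lay below proximal in 5 of 5 mice in other cells and in 4 of 5 in stem-called cells, and this was not tested. Of the 42 members, 35 were seen in every library. Slc25a2 (an ornithine carrier), Slc25a21 (an oxodicarboxylate carrier) and Slc25a43 (no settled substrate) had 23, 6 and 59 UMIs in all and were not tested, and the other 39 were. CPM values are not divided by gene length, so ranks between genes are ranks of captured UMIs. By mean CPM over the 30 sums the first 6 were Slc25a3 (711.3), Slc25a5 (490.9), Slc25a39 (193.5), Slc25a15 (133.0), Slc25a24 (116.2) and Slc25a11 (95.8).

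How many carriers differed depended on the comparison, and the share was mostly near that of all genes. In proximal cells 17 of 39 carriers passed the threshold between stem-called and other cells, 7 higher and 10 lower in stem-called cells, where 46.5% of all genes passed (23.7% higher and 22.8% lower). In distal cells 18 passed, 9 in each direction, where 48.6% of all genes passed (25% higher and 23.6% lower). In the colon 13 of 38 passed, 6 higher and 7 lower, where 32.7% of all genes passed (14.1% higher and 18.7% lower). Between distal and proximal stem-called cells 6 passed, 2 higher and 4 lower in distal, where 11.6% of all genes passed (7% higher and 4.55% lower). Between colon and small intestine stem-called cells 12 passed, 6 in each direction, where 28.1% of all genes passed (15.6% higher and 12.6% lower). In other cells 14 carriers differed between distal and proximal, 4 higher and 10 lower in distal, where 16.9% of all genes passed (8.62% higher and 8.31% lower). There the count fell to between 6 and 8 when any of the 5 mice was left out. In other cells 19 differed between colon and small intestine, 8 higher and 11 lower in colon, where 43.5% of all genes passed (22.1% higher and 21.4% lower). The threshold was an adjusted p of 0.05 over all genes tested. Across these comparisons and the test of whether the stem-called difference varied by organ, 32 carriers passed at least once.

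**Figure D1:**
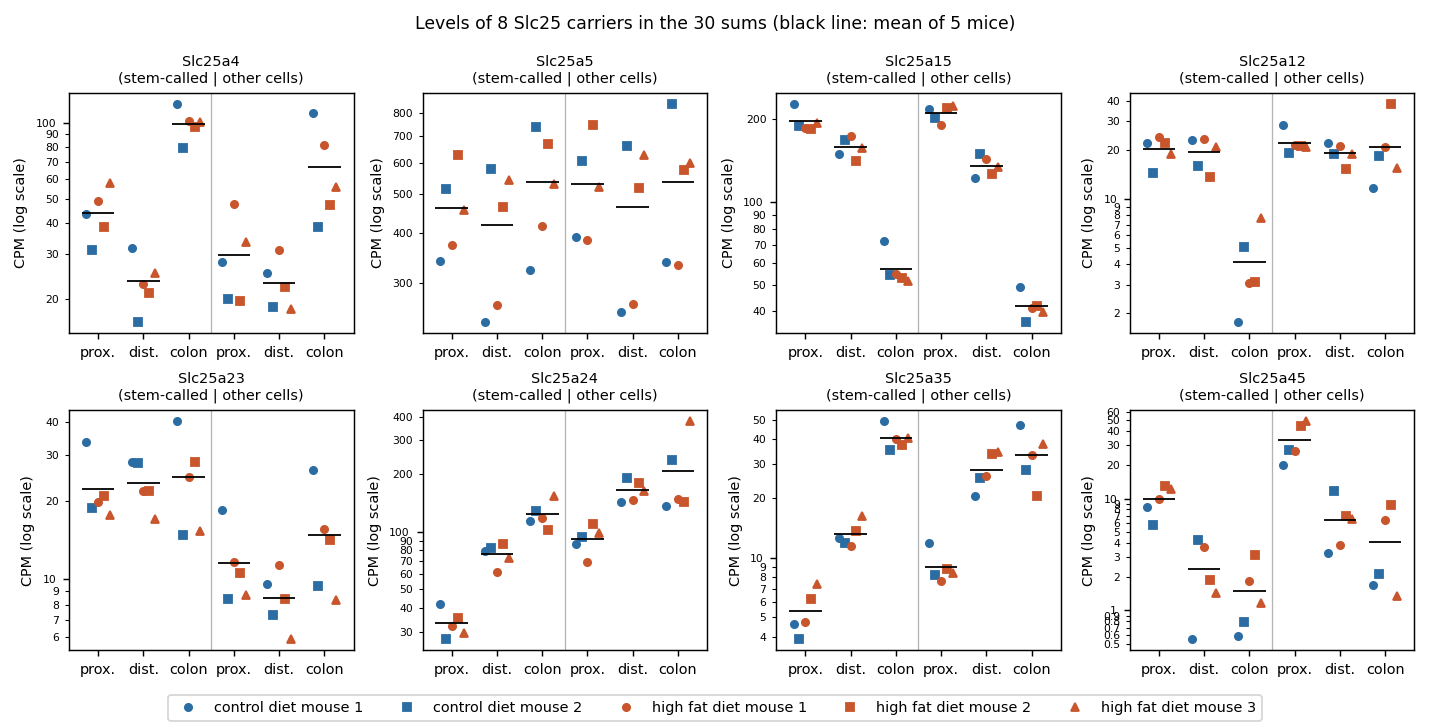
CPM (log scale) of 8 carriers in each of the 30 sums, by organ and by stem call, with 1 point per mouse, coloured by diet, and a black line at the mean of 5 mice. Slc25a12 falls to between 1.77 and 7.64 CPM in colon stem-called cells alone, Slc25a15 falls from proximal to colon in both cell groups, and Slc25a24 and Slc25a35 rise.

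The exchangers of ADP for ATP and the phosphate carrier supply the matrix with the substrates of ATP synthesis. Slc25a4, the exchanger best known from heart and muscle, was highest in the colon. In stem-called cells its level was 43.2, 31.3, 49.0, 38.6 and 57.8 CPM in proximal, 31.9, 16.2, 22.9, 21.1 and 25.3 CPM in distal, and 119, 79.6, 101, 96.4 and 100.3 CPM in colon. Every colon value lay above every small intestine value, and distal lay below proximal in each of the 5 mice. The log2 fold change of colon against small intestine was 1.62 (SE 0.11, edgeR adjusted p = 1.71e-08), and that of distal against proximal was -0.92 (SE 0.13, adjusted p = 0.000165). In other cells the colon was higher too (log2 1.27, SE 0.16, adjusted p = 5.61e-05), at 110, 38.6, 81.6, 47.1 and 55.8 CPM. Stem-called cells exceeded other cells in proximal (log2 0.61, adjusted p = 0.000604) and in colon (0.57, adjusted p = 0.00998), in all 5 mice each, and the distal value was 0.02. The colon call ended with the stem call remade from cells thinned to 3000 UMIs.

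Slc25a5, the exchanger best known from proliferating cells, varied widely among mice. In proximal stem-called cells it stood at 340, 516, 373, 626 and 456 CPM, and in colon stem-called cells at 323, 737, 417, 669 and 531 CPM. Control diet mouse 1 and high fat diet mouse 1 were the lowest pair in each of the 6 sums by organ and call. Its level fell in stem-called against other cells in proximal alone by the test (log2 -0.22, SE 0.04, adjusted p = 0.00141), and whether the organs differ in this was not shown (adjusted p = 0.34 for colon against small intestine). Slc25a3, the phosphate carrier, ranged from 554 to 965 CPM over all sums. It was lower in distal than in proximal other cells (log2 -0.28, adjusted p = 0.0321) and lower in proximal stem-called than other cells (-0.13, adjusted p = 0.0331). Neither Slc25a3 call held in every fit that left out 1 mouse.

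The calcium-regulated carriers of ATP-Mg against phosphate, which adjust the adenine nucleotide content of the matrix, moved in opposite directions. Slc25a24 was lower in stem-called cells and Slc25a23 higher, in every organ and in every mouse. Slc25a24 was at 41.9, 27.4, 32.2, 35.5 and 29.6 CPM in proximal stem-called cells and at 86.1, 93.4, 69.8, 110 and 98.3 CPM in proximal other cells. The 2 sets did not overlap, and the fold change on the log2 scale was -1.52 (SE 0.11, adjusted p = 1.84e-06) in proximal, -1.13 (SE 0.06, adjusted p = 9.77e-07) in distal and -0.75 (SE 0.16, adjusted p = 0.00452) in colon. Slc25a23 was at 33.5, 18.8, 19.8, 20.8 and 17.7 CPM in proximal stem-called cells and at 18.4, 8.41, 11.6, 10.5 and 8.67 CPM in other cells. These ranges overlap between mice, and the rise appeared within each mouse. In Slc25a23 the log2 fold change was 0.94 (SE 0.09, adjusted p = 9.89e-06) in proximal, 1.5 (SE 0.14, adjusted p = 2.11e-05) in distal and 0.66 (SE 0.15, adjusted p = 0.00738) in colon. The rise was smaller in colon than in small intestine by a test of the difference (log2 -0.53, SE 0.15, adjusted p = 0.046), a call that ended when any mouse other than high fat diet mouse 1 was left out and with the remade stem call, which also ended the colon call. Slc25a23 overlaps Crb3 on the opposite strand, and the strand setting of the counting is not given in the sources used here.

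Slc25a24 also climbed along the gut. Stem-called cells held 79.2, 82.3, 61.7, 85.8 and 73.3 CPM in distal and 114, 129, 118, 103 and 154 CPM in colon, so that the 3 organs did not overlap. The log2 fold change was 1.23 (SE 0.13, adjusted p = 1.87e-05) for distal against proximal and 1.32 (SE 0.11, adjusted p = 3.1e-07) for colon against small intestine. In other colon cells it reached 136, 237, 148, 142 and 378 CPM, and the highest values came from control diet mouse 2 and high fat diet mouse 3. The summed level of 8 colonocyte markers there was 675, 6786, 265, 834 and 3698 CPM, highest in the same mice, and its part in the Slc25a24 level was not tested. Slc25a25, the third such carrier, was modestly higher in stem-called cells of the proximal (log2 0.20, adjusted p = 0.0081) and distal small intestine (0.29, adjusted p = 0.00649), the distal call ended without high fat diet mouse 3 and the proximal one with the remade stem call (0.09, adjusted p = 0.37). It was lower in colon than in small intestine stem-called cells (-0.41, adjusted p = 0.0115) and other cells (-0.56, adjusted p = 0.00549), and the first of these also ended with the remade call (-0.19, adjusted p = 0.36).

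**Figure D2:**
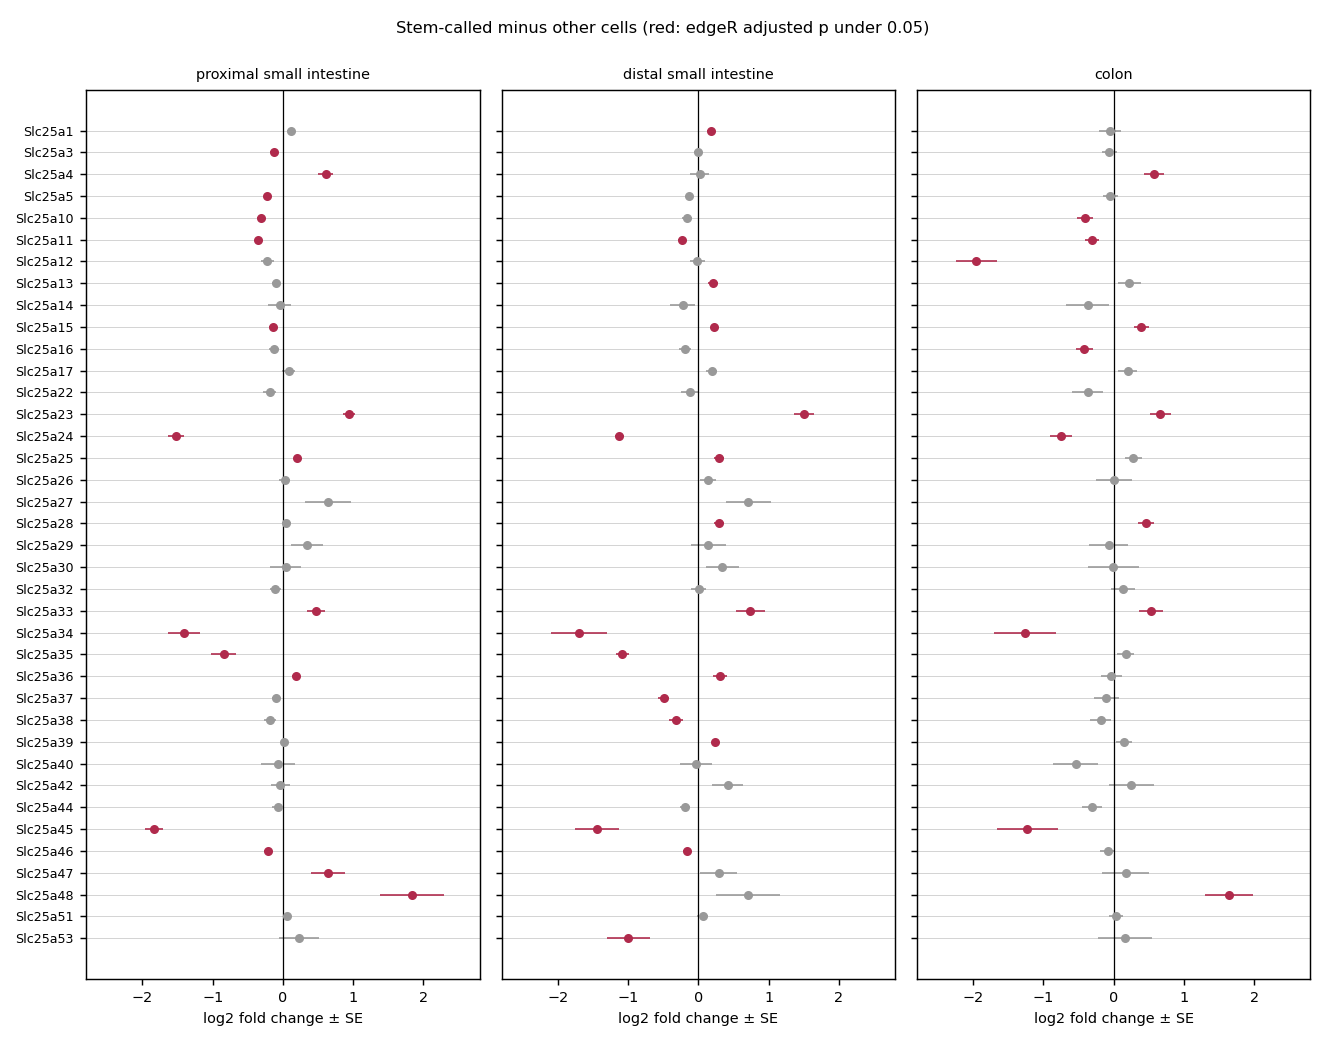
log2 fold change of stem-called minus other cells, with its SE, for all tested carriers but 1 in the 3 organs, red where the edgeR adjusted p is under 0.05. Slc25a24, Slc25a34 and Slc25a45 lie on the lower side and Slc25a23 and Slc25a33 on the higher side in all 3 panels, and Slc25a12 lies far to the left in the colon panel alone.

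Among carriers of amino acids, Slc25a12 was low in colon stem-called cells alone. It is the aspartate-glutamate exchanger of the malate-aspartate shuttle. In colon stem-called cells it was at 1.77, 5.07, 3.07, 3.11 and 7.64 CPM, from 1 to 33 UMIs per sum. In other colon cells it was at 11.7, 18.4, 20.9, 38.3 and 15.5 CPM, and in proximal stem-called cells at 22.0, 14.5, 24.1, 21.9 and 18.9 CPM. The colon stem-called values were below all others of the gene, with a log2 fold change of -2.04 (SE 0.26, adjusted p = 1.89e-05) for colon against small intestine stem-called cells and of -1.95 (SE 0.29, adjusted p = 0.00068) for stem-called against other colon cells. In other cells the colon differed from the small intestine by -0.11 (SE 0.22, adjusted p = 0.72). The test of whether the stem-called difference varies between colon and small intestine gave -1.73 (SE 0.24, adjusted p = 0.000255), one of 4 carriers to pass it, 2 in each direction, where 6.86% of all genes passed (3.28% higher and 3.58% lower). This result passed in every alternative, also with the stem call remade from cells thinned to 3000 UMIs (-1.56, adjusted p = 0.0263). Slc25a13, the other aspartate-glutamate exchanger, was at 36.3 to 52.0 CPM in colon stem-called cells and differed there from other cells by 0.22 (SE 0.17, adjusted p = 0.34). Slc25a12 overlaps the gene model Gm13641 on the opposite strand. The 5 B and plasma cell markers in other colon cells summed to 95.3, 32.9, 1000.1, 580 and 71.1 CPM and 8 T cell markers to 102, 582, 475, 645 and 95.5 CPM. In colon stem-called cells the sums were at most 94.4 and 108 CPM, and within each mouse both were lower than in other cells. The 6 goblet markers were at 540, 1372, 730, 2208 and 606 CPM in colon stem-called and at 2707, 6658, 4295, 10063 and 3857 CPM in other colon cells. The 8 colonocyte markers were at 141, 1064, 79.7, 71.5 and 663 CPM in colon stem-called cells, also below other cells in each mouse. The part of these markers in the Slc25a12 difference was not tested.

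Slc25a15, the ornithine carrier of the urea cycle, was lowest in the colon. Stem-called cells held 227, 189, 186, 183 and 194 CPM in proximal, 149, 168, 174, 141 and 158 CPM in distal and 72.1, 54.2, 54.6, 52.9 and 51.6 CPM in colon. The organs did not overlap in stem-called cells, but the call of distal against proximal there (-0.29, adjusted p = 0.0306) ended without any 1 mouse. The log2 fold change of colon against small intestine was -1.67 (SE 0.08, adjusted p = 1.02e-09) in stem-called and -2.06 (SE 0.08, adjusted p = 9.86e-09) in other cells. In other cells distal was below proximal as well (-0.68, SE 0.08, adjusted p = 0.000203), at 122 to 149 against 190 to 224 CPM. The difference of stem-called from other cells changed sign along the gut, from -0.14 in proximal (adjusted p = 0.0465) to 0.23 in distal (adjusted p = 0.00305) and 0.40 in colon (adjusted p = 0.0137). The difference between colon and small intestine in it was 0.39 (SE 0.08, adjusted p = 0.00782), and it lost its call without control diet mouse 2 and with the stem call remade at 3000 UMIs per cell. The proximal call was lost without control diet mouse 2, high fat diet mouse 2 or high fat diet mouse 3, and the colon call without control diet mouse 1 or high fat diet mouse 3. Both also ended with the remade stem call.

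The remaining amino acid carriers moved less. Slc25a26, which brings in S-adenosylmethionine, was lower in colon stem-called cells (6.50, 9.75, 12.9, 15.6 and 11.3 CPM) than in proximal ones (15.9 to 17.3 CPM), with a log2 fold change of colon against small intestine of -0.61 (adjusted p = 0.0103). That call ended without control diet mouse 1 or 2. Slc25a29, a carrier of basic amino acids, was higher in other cells of the colon (7.45, 6.61, 3.21, 4.12 and 5.11 CPM) than of the proximal small intestine (1.27 to 2.5 CPM), with colon against small intestine at 0.92 (adjusted p = 0.00152). Slc25a38, the glycine carrier, was lower in distal stem-called than other cells (-0.32, adjusted p = 0.0215), and Slc25a13 was higher there (0.21, adjusted p = 0.0276). The first call ended without control diet mouse 2 or high fat diet mouse 1, the second in every fit that left out a mouse except that without high fat diet mouse 3. Both ended with the remade stem call. Slc25a22, a glutamate carrier, and Slc25a44, a carrier of branched-chain amino acids, passed in none of these comparisons.

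The carriers of nucleotides and cofactors gave smaller differences. Slc25a33, a pyrimidine nucleotide carrier, was higher in stem-called cells of all 3 organs (log2 0.47, 0.74 and 0.53, adjusted p = 0.0109, 0.0116 and 0.0365). In distal stem-called cells it was at 9.91, 9.71, 12.6, 18.0 and 12.1 CPM, against 3.80, 5.84, 8.93, 6.09 and 10.1 CPM in other cells. The proximal call ended without high fat diet mouse 2 or 3, and the colon call ended in 4 of the 5 fits that left out a mouse, the exception being high fat diet mouse 2. Slc25a33 rose in the colon in both cell groups (0.81 and 0.79, adjusted p = 0.0013 and 0.00296). Its close relative Slc25a36 was higher in stem-called cells of the proximal (0.19, adjusted p = 0.0117) and distal small intestine (0.31, adjusted p = 0.0245). Its proximal call ended without control diet mouse 2, and its distal call without control diet mouse 1 or high fat diet mouse 1 or 2. Both ended with the remade stem call, as did the colon call of Slc25a33. The peroxisomal cofactor carrier Slc25a17 was higher in the colon, by 0.53 in stem-called and 0.40 in other cells (adjusted p = 0.0019 and 0.00429). The stem-called result did not pass with the remade stem call (0.39, adjusted p = 0.091) or with control diet mice alone, and the other-cell result with the mice of either diet alone. The folate carrier Slc25a32, the coenzyme A carrier Slc25a42 and the NAD carrier Slc25a51 were lower in distal than proximal other cells (-0.52, -0.61 and -0.25). The Slc25a51 call ended without any 1 mouse, and those of Slc25a32 and Slc25a42 without any mouse but control diet mouse 2. For Slc25a42 these were 4.53, 6.84, 5.53, 6.55 and 5.65 CPM against 9.28, 7.15, 9.22, 10.2 and 8.29 CPM, and Slc25a32 and Slc25a42 were lower in the colon too (-0.39 and -0.72), the first call ended without control diet mouse 2 or high fat diet mouse 2 or 3. Slc25a16, linked to coenzyme A, was lower in colon stem-called than other cells (-0.42, adjusted p = 0.0235), which ended without control diet mouse 1 or 2 or high fat diet mouse 3.

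Of the 3 tested carriers of carboxylates, Slc25a10 and Slc25a11 were lower in stem-called cells in some organs and Slc25a1 higher in 1. Slc25a11, which exchanges oxoglutarate for malate, was lower in stem-called cells of proximal (-0.35, adjusted p = 0.000313), distal (-0.23, adjusted p = 0.00466) and colon (-0.31, adjusted p = 0.0347), each in all 5 mice. In proximal it was at 86.9, 89.7, 96.2, 96.8 and 109 CPM in stem-called and at 109, 116, 102, 130 and 134 CPM in other cells. The dicarboxylate carrier Slc25a10 was lower in stem-called cells of proximal (-0.32, adjusted p = 0.000481) and colon (-0.41, adjusted p = 0.0198), and lower in colon than in small intestine in both cell groups (-0.43 and -0.33). The colon calls of Slc25a10 and Slc25a11 between cell groups ended without control diet mouse 2 or high fat diet mouse 3, and the organ call of Slc25a10 in other cells without high fat diet mouse 1 or 3. The citrate carrier Slc25a1 was slightly higher in distal stem-called cells (0.18, adjusted p = 0.0252), and that call ended in 4 of the 5 fits that left out a mouse and with the remade stem call.

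Of the glutathione carriers, Slc25a39 was at 196, 179, 228, 197 and 191 CPM in distal stem-called cells against 166, 163, 180, 166 and 158 CPM in other cells (log2 0.24, adjusted p = 0.00302). Slc25a40 ranged from 1.18 to 11.05 CPM and passed in none. The iron carriers, the mitoferrins, split in distal cells: Slc25a28 was higher in distal stem-called cells (0.30, adjusted p = 0.00672) and Slc25a37 lower (-0.49, adjusted p = 0.000368). The distal Slc25a28 call ended under DESeq2 and with the remade stem call (0.19, adjusted p = 0.11). For Slc25a37 the values were 28.6, 44.2, 29.2, 32.3 and 35.4 CPM against 45.8, 66.2, 40.8, 48.4 and 42.2 CPM. Slc25a28 also passed as higher in colon stem-called than other colon cells. In other cells both mitoferrins passed as lower in colon than in small intestine. Slc25a28 was highest in the proximal organ, at 51.2, 59.1, 56.3, 45.2 and 57.6 CPM in stem-called cells against 30.8, 37.4, 50.6, 25.5 and 48.0 CPM in distal (-0.50, SE 0.09, adjusted p = 0.00197). The uncoupling-protein-like carriers Slc25a14, Slc25a27 and Slc25a30 were at no more than 7.80 CPM and passed in none. Slc25a46, which acts in the shape and fission of mitochondria, was slightly lower in stem-called cells of proximal (-0.21, adjusted p = 0.00837) and distal (-0.16, adjusted p = 0.046), the distal call ended without control diet mouse 1 or 2 or high fat diet mouse 3.

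Carriers with no settled or only recently assigned substrate also differed along the gut. Slc25a35 was at 4.61, 3.87, 4.72, 6.21 and 7.40 CPM in proximal, 12.7, 12, 11.6, 13.7 and 16.4 CPM in distal and 49.1, 35.1, 39.9, 37.3 and 40.5 CPM in colon stem-called cells. The 3 organs did not overlap, with log2 fold changes of 1.38 (SE 0.17, adjusted p = 5.53e-05) for distal against proximal and 2.27 (SE 0.13, adjusted p = 4.98e-09) for colon against small intestine. It was lower in stem-called than other cells in proximal (-0.84, adjusted p = 0.00254) and distal (-1.08, adjusted p = 1.11e-05) and not in colon (0.17, adjusted p = 0.33). The test of that difference gave 1.15 (SE 0.16, adjusted p = 0.000205). Slc25a35 overlaps Rangrf on the opposite strand.

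Slc25a45 ran the other way. In other cells it was at 19.9, 27.0, 26.7, 45.0 and 49.0 CPM in proximal, 3.26, 11.6, 3.83, 7.02 and 6.63 CPM in distal and 1.67, 2.14, 6.42, 8.83 and 1.34 CPM in colon. The proximal values lay above all distal and colon values, with log2 fold changes of -2.37 (SE 0.41, adjusted p = 0.00224) for distal against proximal and -2.30 (SE 0.43, adjusted p = 0.00117) for colon against small intestine. In proximal stem-called cells it was at 8.37, 5.77, 9.88, 13.1 and 12.1 CPM, below other cells by 1.84 on the log2 scale (log2 -1.84, SE 0.13, adjusted p = 1.8e-06). The summed level of 8 small intestine absorptive markers was 491 to 2147 CPM in proximal stem-called and 1896 to 4309 CPM in proximal other cells, and none of the 8 was at 0. Its part in the Slc25a45 difference was not tested.

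Slc25a48, reported to carry choline, was highest in the colon among stem-called cells, at 4.14, 11.7, 9.81, 9.33 and 15.1 CPM there against at most 2.06 CPM in the small intestine. The log2 fold change was 2.97 (SE 0.44, adjusted p = 9.39e-05), on 3 to 65 UMIs per colon sum. That call ended with the control diet mice alone. Colon stem-called cells exceeded other colon cells (2.89, 1.75, 4.13, 5.30 and 3.61 CPM) by 1.64 (SE 0.34, adjusted p = 0.00419), a call kept in every alternative. Slc25a48 also passed as higher in stem-called than other cells of the proximal small intestine, and it did not pass in distal. Slc25a34 was lower in stem-called cells of proximal (-1.41, SE 0.22, adjusted p = 0.000415), distal (-1.70, SE 0.40, adjusted p = 0.00669) and colon (-1.26, SE 0.45, adjusted p = 0.0493), the last ended by leaving out control diet mouse 2 or high fat diet mouse 2. Slc25a53, at 2.20, 0.777, 1.53, 2.49 and 3.17 CPM in distal stem-called and 3.44, 2.55, 4.68, 6.09 and 3.49 CPM in other cells, differed by -0.99 (adjusted p = 0.0197), a call lost without control diet mouse 2 or high fat diet mouse 1. Slc25a47, best known from liver, was at 4.25, 2.63, 3.01, 2.22 and 2.47 CPM in proximal stem-called and 1.73, 1.47, 2.23, 1.76 and 2.23 CPM in other cells (0.64, adjusted p = 0.0493), a call lost without any 1 mouse. The remade stem call ended the Slc25a47, Slc25a53 and colon Slc25a34 calls.

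**Figure D3:**
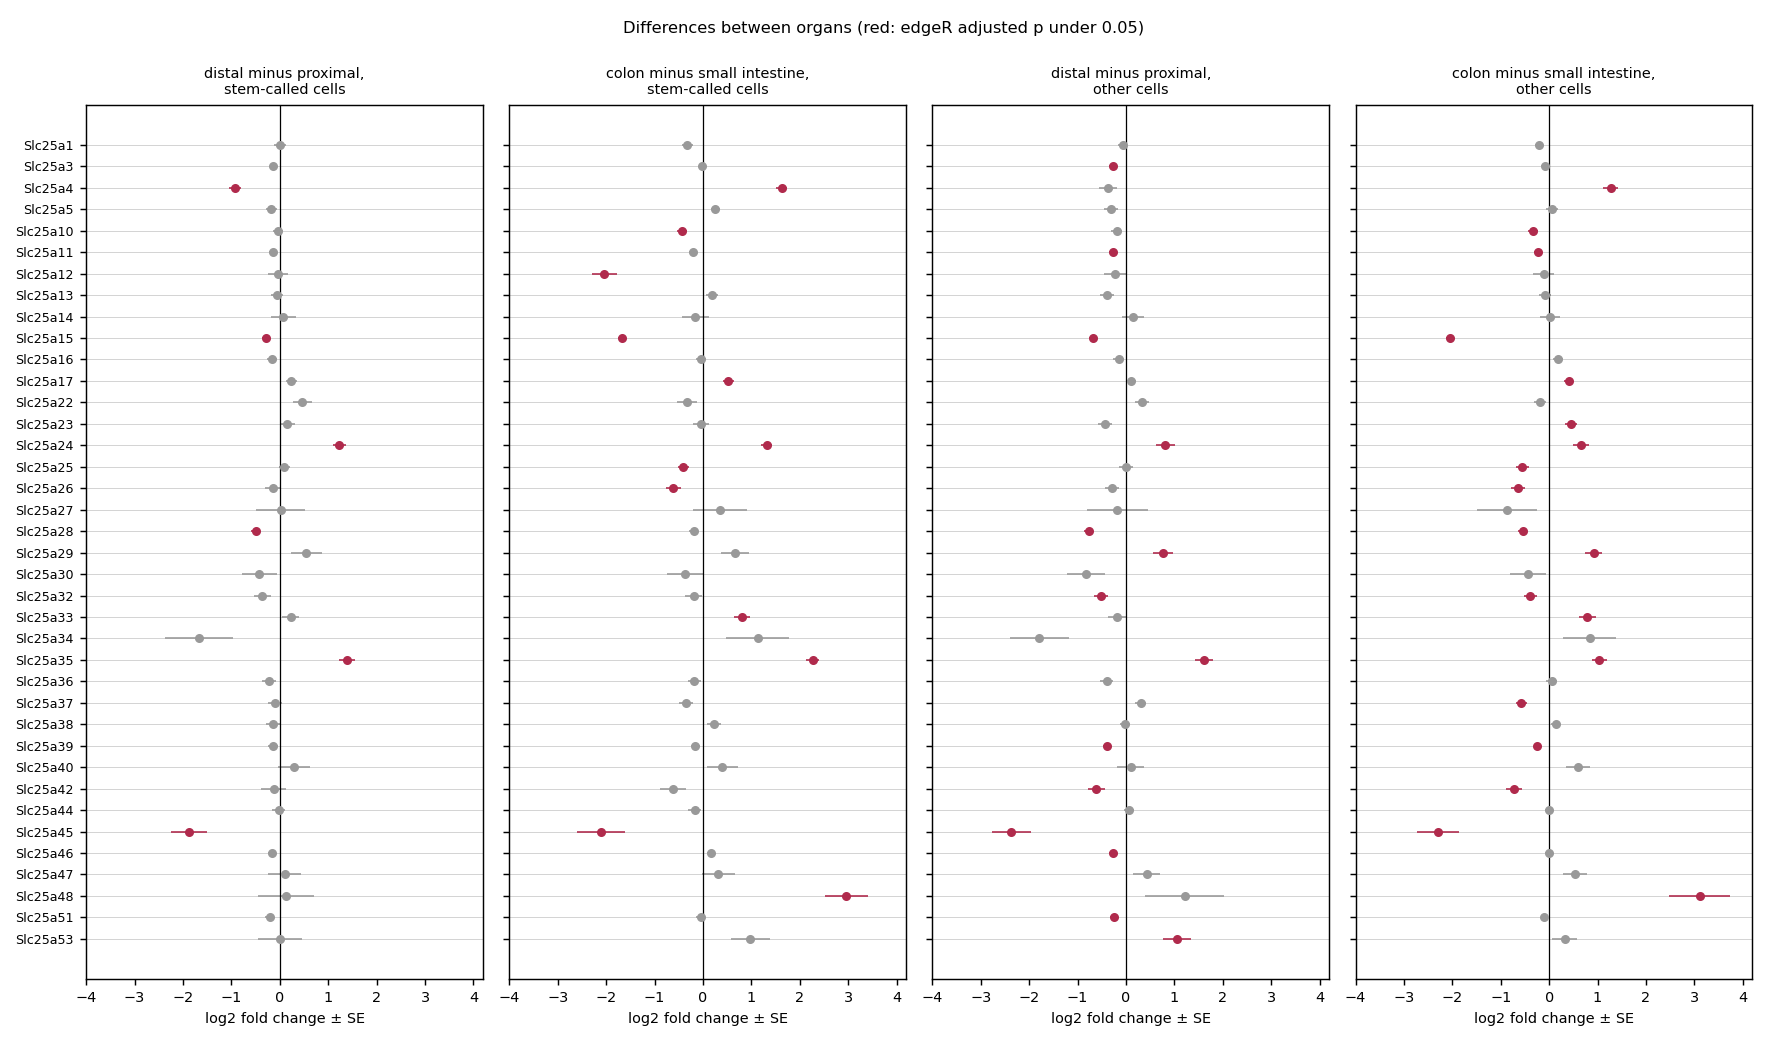
log2 fold change with its SE for 38 of the 39 tested carriers between distal and proximal and between colon and small intestine, in stem-called and in other cells, red where the edgeR adjusted p is under 0.05. Slc25a15 and Slc25a45 lie left and Slc25a24 and Slc25a35 right of 0 in all 4 panels, while Slc25a48 reaches 2.97 and 3.11 in the colon panels.

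The high fat diet changed no carrier past the threshold by the main edgeR fit, which pooled the organs. Slc25a34 passed in some other edgeR fits, given below. In proximal stem-called cells 0 of 39 passed, where 0.122% of all genes passed, 2 carriers had an unadjusted p under 0.05, and DESeq2 called 1. In distal stem-called cells 0 passed (all genes 0.0081%), 0 had an unadjusted p under 0.05 and DESeq2 called 0. In colon stem-called cells 0 passed (all genes 0%), 1 had an unadjusted p under 0.05 and DESeq2 called 0. In other cells 0 passed in proximal (all genes 0.0839%, 2 carriers at an unadjusted p under 0.05, DESeq2 1), 0 in distal (0.00699%, 2 and 0) and 0 in colon (0%, 1 and 0). The median carrier moved by 0.01 in proximal stem-called cells, and the median SE there was 0.28. The diets' mice did not overlap for 8 of 39 carriers in proximal stem-called cells, 4 higher and 4 lower under the high fat diet, where 17.1% of all genes did not overlap (7.31% higher and 9.78% lower). In proximal other cells 11 did not overlap, 6 higher and 5 lower, where 16.4% of all genes did not (5.98% higher and 10.4% lower). In distal cells 1 was higher and 1 lower in stem-called cells (all genes 7.98% and 5.15%), and 4 and 3 in other cells (9.56% and 3.45%). In the colon the counts were 4 and 0 in stem-called (5.87% and 7.59%) and 4 and 2 in other cells (6.77% and 4.11%).

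**Figure D4:**
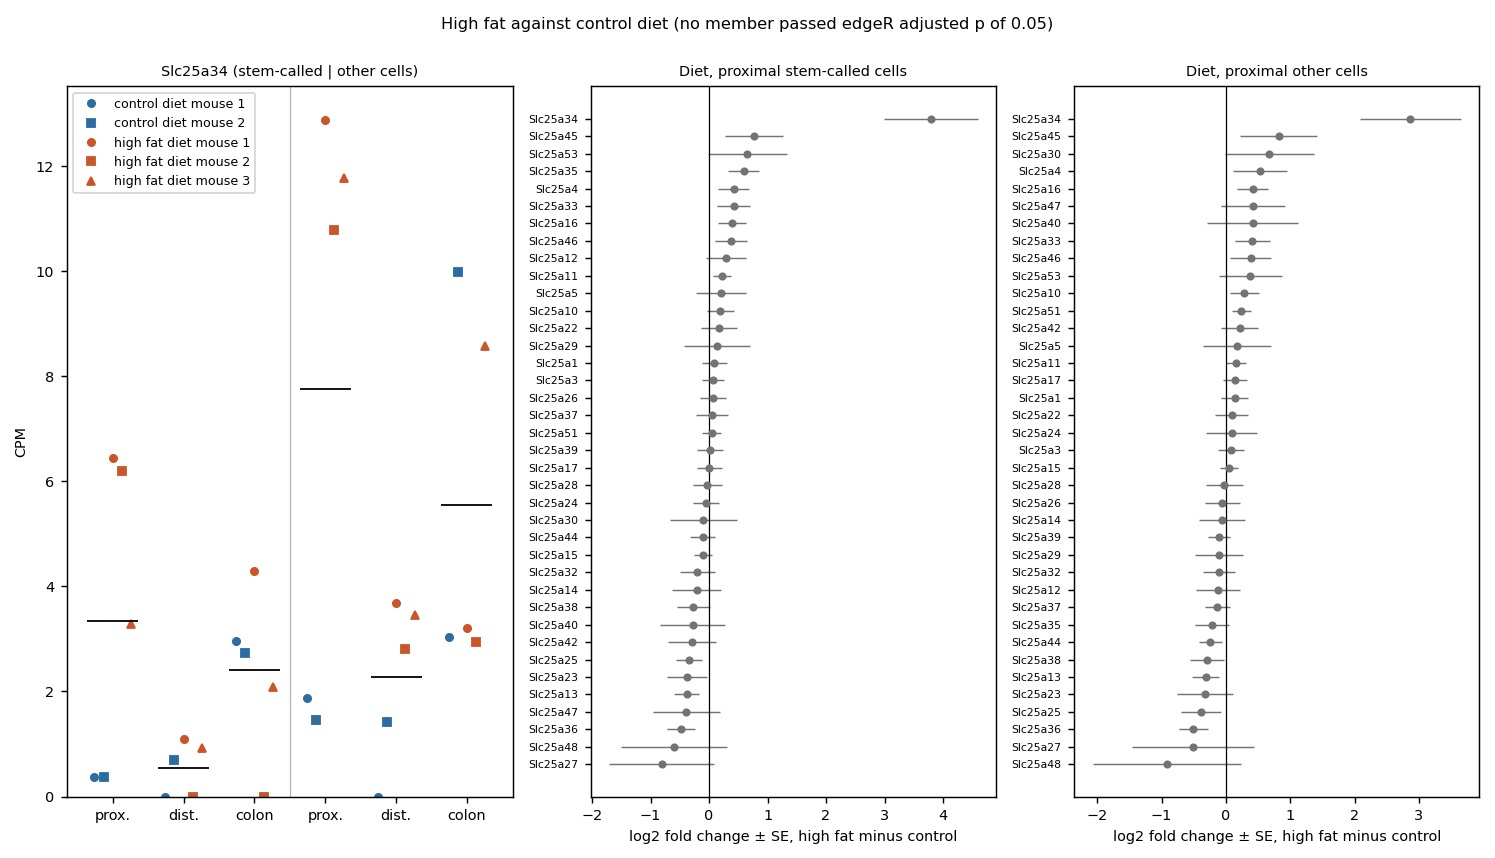
Left, CPM of Slc25a34 in the 30 sums, 1 point per mouse with a black line at the mean. Middle and right, log2 fold change of high fat minus control diet with its SE for 38 of the 39 tested carriers in proximal stem-called and other cells, where Slc25a34 stands at 3.79 and 2.87 and every other carrier shown lies between -0.92 and 0.82.

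Slc25a34, whose substrate is not settled, stood apart from the other carriers by diet in the proximal small intestine. In stem-called cells it was at 0.364 and 0.365 CPM in the control and 6.44, 6.21 and 3.29 CPM in the high fat diet mice, on 3 to 28 UMIs per sum. In other cells it was at 1.87 and 1.47 against 12.9, 10.8 and 11.8 CPM. The diets did not overlap in either cell group. The log2 fold change was 3.79 (SE 0.80, adjusted p = 0.121) in stem-called and 2.87 (SE 0.79, adjusted p = 0.732) in other cells. It passed in stem-called cells under DESeq2 (3.89, adjusted p = 0.0125) and with the replicate number, only a name across the diets, as a block (3.92, adjusted p = 0.0302). Without any 1 high fat diet mouse the log2 fold change by edgeR was 3.61 to 4.05 (adjusted p = 0.230 to 0.446). Without control diet mouse 1 or 2 it was 3.77 and 3.79. In other cells Slc25a34 passed under DESeq2 (2.88, adjusted p = 0.0106) and with the proximal samples fitted alone (2.87, adjusted p = 0.0214). Control diet mouse 2 and high fat diet mouse 3 had the highest median UMIs per proximal cell. Between them and among the other mice, the differences of log2(CPM + 0.5) were 2.13 and 2.98 in stem-called and 2.64 and 2.37 in other cells. Depth was not matched by this split. The median was 19819 and 13744 UMIs in stem-called cells of these mice, and control diet mouse 1 held more UMIs in all (8240251) than high fat diet mouse 3 (4862109). In the distal small intestine the values were 0 and 0.699 against 1.09, 0 and 0.920 CPM in stem-called cells. In other distal cells they were 0 and 1.42 against 3.68, 2.81 and 3.45 CPM (log2 1.89, adjusted p = 1), and the diets did not overlap there either. In colon stem-called cells the diets overlapped. The test of whether the diet effect differed between distal and proximal stem-called cells gave -3.15 (SE 1.16, adjusted p = 1).

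The absorptive markers also differed by diet in these sums. Their sum was 566 and 491 CPM in control against 2147, 1215 and 942 CPM in high fat diet proximal stem-called cells, and 1896 and 2481 against 3986, 4309 and 4038 CPM in other cells. Paneth cell markers (7 genes) went the other way, at 1355 and 633 against 127, 339 and 215 CPM in stem-called and 1112 and 801 against 493, 241 and 281 CPM in other cells. In stem-called cells the 7 enteroendocrine markers were at 119 and 98.0 against 240, 204 and 193 CPM and the 6 tuft markers at 60.4 and 64.9 against 110, 80.9 and 123.4 CPM, and both lists overlapped between diets in other cells. In these 4 lists no gene was at 0. The 8 colonocyte markers were at 75.2 and 57.4 against 170.5, 159.8 and 97.3 CPM in proximal stem-called cells. Car1 and Saa1 of that list were at 0 there, and the list overlapped between diets in other cells. The part of these markers in the Slc25a34 difference was not tested.

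The other carriers with the lowest p by diet had an adjusted p of 1. Slc25a35 was at 4.61 and 3.87 against 4.72, 6.21 and 7.40 CPM in proximal stem-called cells (log2 0.59, SE 0.27, adjusted p = 1). Slc25a36 was at 54.3 and 54.5 against 35.1, 39.0 and 37.4 CPM in proximal other cells (-0.51, SE 0.23, adjusted p = 1), and the diets did not overlap. Slc25a33 was at 3.80 and 5.84 against 8.93, 6.09 and 10.1 CPM in distal other cells (0.74, SE 0.29, adjusted p = 1) and at 9.91 and 9.71 against 12.6, 18.0 and 12.1 CPM in distal stem-called cells (0.47, SE 0.30, adjusted p = 1). In distal stem-called cells Slc25a23 was at 28.1 and 27.9 against 21.8, 21.8 and 17.1 CPM (-0.52, SE 0.35, adjusted p = 1). Slc25a1 was at 63.9 and 65.2 against 93.2, 115 and 74.3 CPM in colon stem-called cells (0.52, SE 0.24, adjusted p = 1), and Slc25a26 differed there by 0.60 (SE 0.29). In other colon cells Slc25a53 was at 1.67 and 2.27 against 5.50, 7.06 and 2.79 CPM (1.26, SE 0.51, adjusted p = 1) and Slc25a29 differed by -0.76 (SE 0.38). Of the 39 carriers, 0 passed the test of a diet effect that differs between distal and proximal stem-called cells, where 0.105% of all genes passed, with 1 at an unadjusted p under 0.05 and 0 called by DESeq2. Likewise 0 passed the test between stem-called and other proximal cells, where 0.031% of all genes passed, with 2 at an unadjusted p under 0.05 and 0 called by DESeq2. Those 2 were Slc25a35 (0.81, SE 0.29) and Slc25a12 (0.40, SE 0.16).

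The enzymes that use what the carriers move were mostly lower in stem-called cells of the small intestine, and in the colon at a share near that of all genes. Of 20 genes of the citrate cycle and the aspartate shuttle, 0 were higher and 16 lower in stem-called than other proximal cells (median log2 -0.32, all genes 0.03), Cs (citrate synthase), Mdh2 (mitochondrial malate dehydrogenase) and Got1 (cytosolic aspartate aminotransferase) among them. All genes passed there at 23.7% higher and 22.8% lower. In distal cells 1 was higher and 13 lower, beside 25% and 23.6% of all genes, and in the colon 1 was higher and 4 lower, beside 14.1% and 18.7%. Got2, the mitochondrial aspartate aminotransferase, was the one higher gene in both. Between distal and proximal other cells 0 were higher and 17 lower, beside 8.62% and 8.31% of all genes. Of the 12 genes measured from the import machinery that inserts carriers, 0 were higher and 8 lower in proximal stem-called cells, among them the small translocase subunits Timm8b, Timm9, Timm10 and Timm13, beside 23.7% and 22.8% of all genes. In distal cells 1 was higher and 3 lower (median log2 0.02), beside 25% and 23.6%. In colon stem-called cells the import receptors Tomm70a and Tomm20 were higher and 0 of the 12 lower, beside 14.1% and 18.7% of all genes. Among 3 tested relatives outside the naming rule, Ucp2, an uncoupling protein, and Mtch2, an outer membrane relative, were lower in stem-called cells of the proximal and distal small intestine.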

How the data were processed

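The authors deposited 1 table of raw UMI counts per gene and cell, filtered on cell quality per the file names and labels, and a table with the mouse, organ and stem call of each cell. Per the submitters' processing notes the build was mm10. The aligner, the gene annotation and the strand setting are not given in the sources used here. Genes seen in few cells may have been removed, so no fold was bounded from a count of 0. The cell table's mouse name for control diet mouse 2 was assigned by elimination. Counts were summed per mouse, organ and stem call (30 sums), and plain CPM are given as levels. The quasi-likelihood test of edgeR 4.0.16 (R 4.3.3, TMM scaling, low-count filter by group) was fitted to all genes, with Benjamini-Hochberg adjustment over all of them and a threshold of 0.05. Diets were compared without a block, over all 15 sums of a cell group. Organs and cell groups were compared within mice. The test of whether the stem-called difference varied between colon and small intestine was blocked by library (15), with no term for the mouse. DESeq2 1.42.0, other scalings, no filter, leaving out each mouse, a stem call remade on cells thinned to 3000 UMIs (961 shallower cells left out) and removal of 242 cells called as doublets (1.28%, kept otherwise; scanpy 1.11.5) were tried. The remade call kept 2252 of the 4618 stem-called cells, and deeper cells that lost it joined the other cells. A stem-called sum of 11 cells fell under the minimum of 20 and was left out. Whether depth or these smaller and mixed groups ended a call was not tested. For some of the comparisons the edgeR fit was also run on simulated counts that held no mouse effect. That run cannot show how effects shared within a mouse bear on the tests, and its outcome is not used here. Every carrier is named but 1, which is counted but otherwise not reported here. Values per mouse were drawn from the 8 largest called changes in a comparison, the 2 smallest p where none was called, the 6 highest levels, and further carriers chosen after their values were seen. Not all of these are printed, and some are given as ranges or fold changes alone. The members and lists were chosen with earlier results of these data known.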

Additional observations from a re-analysis of the deposited data

Results flagged for a closer look

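For 4 carriers the difference between stem-called and other cells was not the same in colon and small intestine by a test of that difference (edgeR, adjusted over all genes). The test was blocked by library, with 15 libraries from 5 mice and no term for the mouse, so libraries of 1 mouse counted as separate. The log2 difference of differences was -1.73 for Slc25a12, which was low in colon stem-called cells alone. It was 1.15 for Slc25a35, which was lower in stem-called cells of the small intestine and not of the colon. It was 0.39 for Slc25a15, the ornithine carrier, and -0.53 for Slc25a23, the calcium-regulated ATP-Mg carrier. The tests of Slc25a12 and Slc25a35 passed without each mouse in turn, that of Slc25a15 did not pass without control diet mouse 2, and that of Slc25a23 passed only without high fat diet mouse 1.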

How the results depend on the processing

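Of 212 alternative counts of called carriers, 186 were within 1.5 times the reported count. Of 1335 alternative values of the 103 calls, 1038 kept the call, 297 lost it and 0 changed sign, and 26 calls were kept in every alternative run. By diet DESeq2 called 1 carrier in proximal stem-called and 1 in proximal other cells, the fit on proximal samples alone called 1 in other cells, and the fit with the replicate block called 1 in stem-called cells. Replicate numbers are only names across the diets. For same-numbered mice, the deviations of log2 levels from the mean of their diet were correlated over 12339 genes. The correlations for mice 1 and 2 were 0.33 and 0.13 in proximal, 0.35 and 0.06 in distal and 0.40 and 0.03 in colon stem-called cells. With 2 control mice their deviations mirror each other, so the values of an organ are not independent. Without the block by mouse, counts were 6 for distal against proximal other cells and 6, 5 and 2 for stem-called against other cells in proximal, distal and colon. Without the block by library, the count was 2 for the difference of that contrast between colon and small intestine. With control diet mice alone 2 carriers were called between distal and proximal stem-called cells, 0 between distal and proximal other cells and 7 between colon and small intestine other cells, and with high fat diet mice alone 5 and 9 in the last pair. Plain library totals gave 7 for distal against proximal other cells. The remade stem call gave 6 in the colon and 2 for the difference between organs, for which DESeq2 gave 7. Leaving out 1 mouse gave 6 to 8 for distal against proximal other cells. It gave 5 to 12 for the colon cell groups, where the count was 6 with control diet mouse 2 left out and 5 with the third high fat mouse left out. It gave 2 to 4 for the difference between organs (2 without control diet mouse 2). The uncalled diet difference between distal and proximal stem-called cells, reported as -3.15 for Slc25a34 and -1.22 for Slc25a45, ranged over these fits from -3.82 to 0.98 and from -1.97 to 1.34, with the positive values from leaving out control diet mouse 2. The cause was not tested. With 27 stem-called cells in the smallest sum, low carriers in the colon rest on few UMIs.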
